A study of Ovis aries with 6 samples.

Results

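SPARC, SPARCL1, SMOC1, SMOC2, SPOCK1 and SPOCK2 encode secreted calcium-binding proteins of the SPARC family, and all 6 genes were found by symbol among the 26425 rows of the deposited gene table. The set was picked from measured values: SMOC2 had risen and SPARC had stayed level when the MEOX2 samples were compared with the controls in these data. The differences of the 6 genes between the groups are therefore given as descriptions, with no test. The cells were sheep stromal vascular fraction cells, the mixed fraction of fat tissue that holds adipocyte precursors, and the labels call the cell type adipocyte. In 3 samples MEOX2, a mesodermal homeobox transcription factor, was overexpressed, and 3 control samples carry the label NC. Column names of both groups begin with pHBLV, which the labels do not explain. The promoter driving MEOX2, the time after its introduction, the animals' strain and age, and whether samples came from separate cultures were not stated in the labels, so the p-values reflect the spread of these samples alone, and that spread may be technical.

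Members of the SPARC family share a follistatin-like module and an extracellular calcium-binding domain, and they act in the matrix around cells more than as structural fibres. SPARC itself, also called osteonectin, binds collagens, guides their assembly and is known to restrain fat cell formation. SMOC proteins carry additional thyroglobulin-like modules and are known to hold back BMP signalling, while the SPOCK proteins, or testicans, are proteoglycans with heparan and chondroitin sulfate chains.

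Values are FPKM, reads scaled to gene length and library size, so levels of different genes can be compared. Between 11772772 and 12230863 reads were counted per library. MEOX2 was at 152.7, 107.7 and 138.4 FPKM in MEOX2 samples 1 to 3 and at 10.8, 10.1 and 9.03 FPKM in NC samples 1 to 3, high in each library labelled as overexpressing. Gene-level reads do not separate the introduced copy from the sheep gene. On the second principal component (22.2% of variance) NC sample 3 stood away from the remaining 5 libraries. Of 15 mature adipocyte markers, 14 were matched to a row, and 11 averaged at least 1 FPKM and were tested. ADIPOQ and FABP4 averaged 36.9 and 235.3 FPKM in controls and 7.13 and 79.6 FPKM under MEOX2. LEP, the leptin gene, was listed at 0 in all 6 libraries.

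SPARC (ENSOARG00000009032, chromosome 5, 60405206 to 60427607, minus strand; genome build not stated) was among the most abundant transcripts of these cells, with rank 6 by mean level among the 13121 genes that averaged at least 1 FPKM. It stood at 5948, 5047 and 5568 FPKM in MEOX2 samples 1 to 3 and at 5610, 5744 and 5282 FPKM in NC samples 1 to 3. The MEOX2 values spanned the whole NC range, under MEOX2 sample 1 highest and MEOX2 sample 2 lowest of the 6. Group means were 5521 ± 452.2 FPKM under MEOX2 and 5545 ± 237.8 FPKM in controls (SD, n = 3 each), a difference of -0.00876 (SE 0.09) in log2(FPKM + 1). Each library held at least 141873 SPARC reads, so counting error was small beside the spread between samples.

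SMOC2 (ENSOARG00000005022, chromosome 8, 89288008 to 89399146, plus strand), a secreted modular calcium-binding protein, showed the largest difference of the 6 genes. It was at 15.6, 16.2 and 15.5 FPKM in MEOX2 samples 1 to 3 and at 5.64, 5.59 and 5.06 FPKM in NC samples 1 to 3. The groups lay far apart, with coefficients of variation of 2.36% under MEOX2 and 5.95% in controls. At 95 to 306 reads per library, counting error alone would give at least that spread, so the tightness of 3 values is not read as a trait of the gene. The group mean was 2.90-fold higher under MEOX2, 15.7 ± 0.371 against 5.43 ± 0.323 FPKM (SD, n = 3 each), on 95 to 306 reads per library. On the log2(FPKM + 1) scale, which understates changes of low genes, the difference was 1.38 (SE 0.09), the rank 15 among 13121 differences counted from the highest. MEOX2 sample 2, with the lowest MEOX2 level of the overexpressing samples, had the highest SMOC2 level. The SMOC2 values of the MEOX2 samples differed by less than counting error, so nothing is read from their order. In bulk RNA, fewer cells of a type and less RNA per cell cannot be told apart, for this gene or any below.

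SMOC1 (ENSOARG00000021190, chromosome 7, 78597451 to 78673983, plus strand), the close paralog of SMOC2, differed in the opposite direction. MEOX2 samples 1 to 3 had 0.703, 0.836 and 1.44 FPKM, and NC samples 1 to 3 had 2.80, 3.79 and 1.75 FPKM. The groups did not overlap, but MEOX2 sample 3 and NC sample 3 were close. Those 2 libraries held 22 and 27 SMOC1 reads, with exact 95% Poisson intervals of 13.8 to 33.3 and 17.8 to 39.3, so they were not distinguishable at this depth. The intervals cover counting error only. The NC mean, 2.78 ± 1.02 FPKM, was 2.80-fold the MEOX2 mean of 0.992 ± 0.392 FPKM (SD, n = 3 each), and the difference was -0.90 (SE 0.23) in log2(FPKM + 1). Coefficients of variation of SMOC1 were 39.5% under MEOX2 and 36.7% in controls, larger than those of SMOC2. Its 10 to 58 reads per library bring more counting error than the 95 to 306 reads of SMOC2, and the part of depth in this was not tested.

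**Figure D1:**
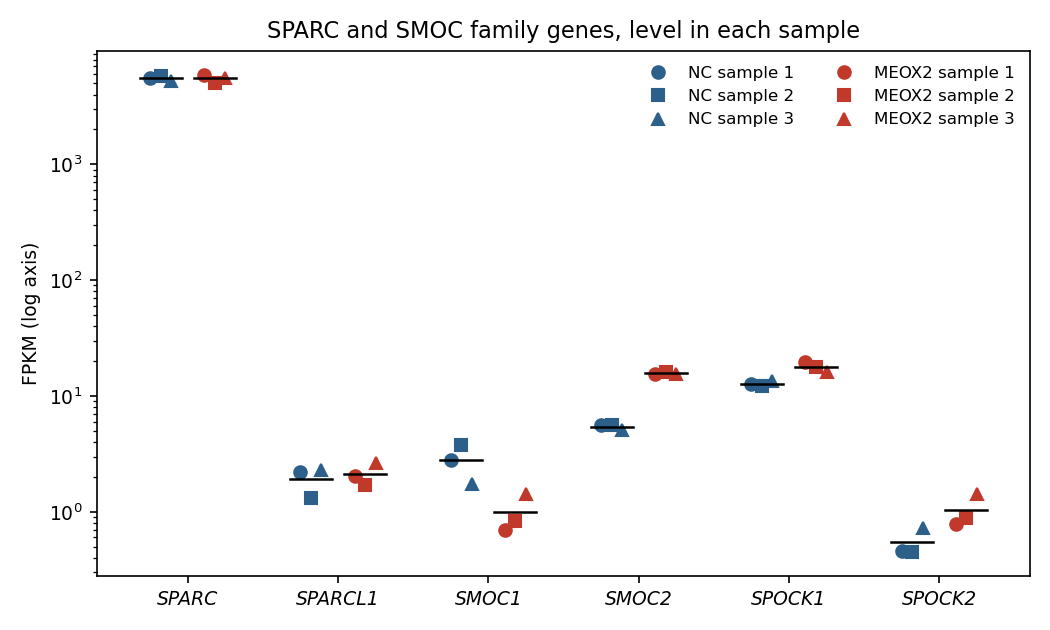
Level of each family gene in each sample, in FPKM on a log axis, with NC samples in blue, MEOX2 samples in red and group means as black bars. SPARC has means of 5521 and 5545 FPKM, SMOC2 is higher and SMOC1 lower in every MEOX2 sample, and the 3 lowest genes scatter most.

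The ratio of SMOC2 to SMOC1 put both differences in 1 number per sample. MEOX2 samples 1 to 3 had ratios of 22.2, 19.3 and 10.8, whereas NC samples 1 to 3 had ratios of 2.02, 1.47 and 2.89. SMOC2 was the more abundant paralog in all 6 samples, and the ratio averaged 17.4 ± 5.95 under MEOX2 against 2.13 ± 0.716 in controls (SD, n = 3 each). The ratio leans on the few SMOC1 reads, 10 to 58 per library. The paralogs' summed level was 16.7 ± 0.381 FPKM under MEOX2 and 8.21 ± 1.30 FPKM in controls, so the lower SMOC1 level did not offset the higher SMOC2 level.

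SPOCK1 (ENSOARG00000015313, chromosome 5, 45736487 to 46078675, minus strand), or testican-1, was the second most abundant member. It was at 19.8, 17.7 and 16.0 FPKM in MEOX2 samples 1 to 3 and at 12.6, 12.1 and 13.3 FPKM in NC samples 1 to 3. All MEOX2 values lay above all NC values, with the smallest gap between MEOX2 sample 3 and NC sample 3. Means were 17.9 ± 1.90 and 12.7 ± 0.622 FPKM (SD, n = 3 each), 1.41-fold higher under MEOX2, a difference of 0.46 (SE 0.10) in log2(FPKM + 1) on 472 to 719 reads per library.

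SPOCK2 (ENSOARG00000007029, chromosome 25, 28010498 to 28032497, minus strand), or testican-2, averaged 0.788 FPKM and was the only member under the filter of 1 FPKM, so it was not part of the fit. MEOX2 samples 1 to 3 had 0.789, 0.888 and 1.41 FPKM and NC samples 1 to 3 had 0.460, 0.451 and 0.727 FPKM. The groups did not overlap, yet MEOX2 sample 1 and NC sample 3 each held 13 reads (exact 95% Poisson interval 6.9 to 22.2). Means were 1.03 ± 0.334 and 0.546 ± 0.157 FPKM (SD, n = 3 each), and the fit without a filter gave a difference of 0.38 (SE 0.14). SPOCK1 exceeded SPOCK2 by 11.4 to 27.4-fold across the 6 samples.

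SPARCL1 (ENSOARG00000005006, chromosome 6, 101989024 to 102039415, minus strand), also called hevin, is the closest relative of SPARC and in tissues is known from blood vessels and brain. It was at 2.05, 1.69 and 2.65 FPKM in MEOX2 samples 1 to 3 and at 2.19, 1.33 and 2.28 FPKM in NC samples 1 to 3. The groups overlapped, with means of 2.13 ± 0.487 and 1.93 ± 0.526 FPKM (SD, n = 3 each) and a difference of 0.10 (SE 0.19) in log2(FPKM + 1), which was -0.058 without NC sample 2 and -0.016 without MEOX2 sample 3. It rested on 34 to 68 reads per library, and SPARC exceeded it by 2100 to 4334-fold.

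By mean level the order in controls was SPARC, SPOCK1, SMOC2, SMOC1, SPARCL1 and SPOCK2, and only SMOC1 and SPARCL1 overlapped among neighbours in that order. With MEOX2 the order was SPARC, SPOCK1, SMOC2, SPARCL1, SPOCK2 and SMOC1. There the ranges of SPOCK1 and SMOC2 overlapped, as did those of SPOCK2 and SMOC1. SMOC1 thus moved to the last place, and SMOC2 came nearer to SPOCK1 but stayed below it in all 6 samples. The ratio of SPOCK1 to SMOC2 was 2.35 ± 0.254 in controls and 1.13 ± 0.122 under MEOX2 (SD, n = 3 each).

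SPARC made up 99.27% to 99.60% of the family's summed FPKM, so that sum, 5559 ± 453.3 FPKM under MEOX2 and 5569 ± 237.8 FPKM in controls (SD, n = 3 each), followed SPARC alone. Without SPARC the other 5 genes summed to 38.97, 37.3 and 37.0 FPKM in MEOX2 samples 1 to 3 and to 23.7, 23.2 and 23.1 FPKM in NC samples 1 to 3. All MEOX2 sums exceeded all NC sums. Of that remainder SMOC2 supplied 40.0% to 43.3% under MEOX2 and 21.9% to 24.0% in controls, and SMOC1 supplied 1.8% to 3.89% and 7.55% to 16.3%. The share of SPOCK1 was 43.3% to 50.9% under MEOX2 and 52.0% to 57.6% in controls.

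**Figure D2:**
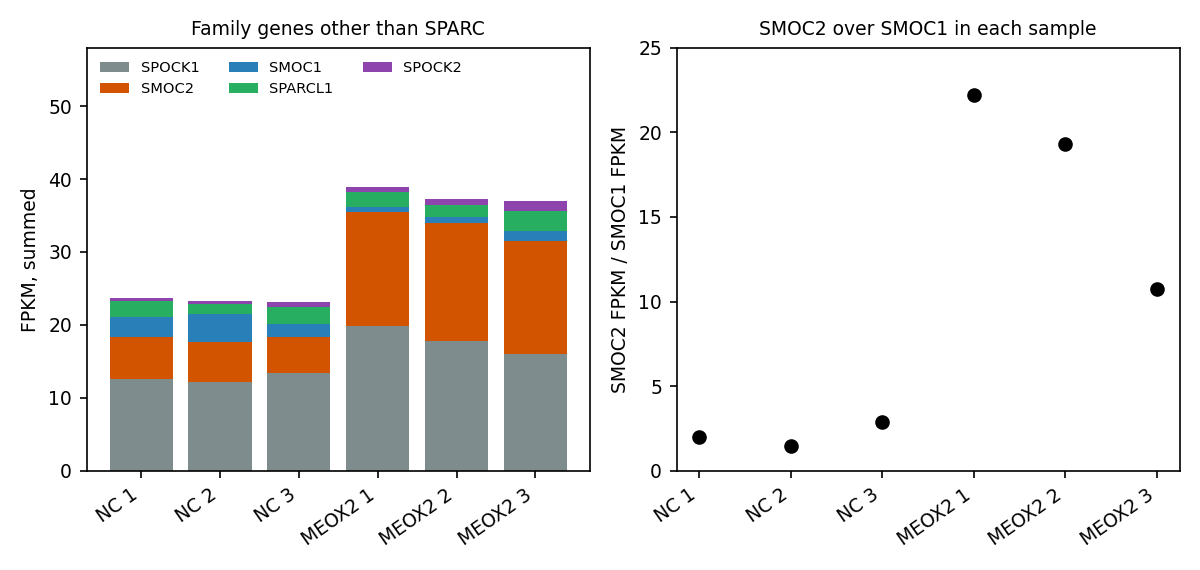
Left, summed FPKM of the 5 family genes other than SPARC in each sample, stacked by gene; right, FPKM of SMOC2 divided by FPKM of SMOC1 in each sample. The stacks reach 37.0 to 39.0 FPKM under MEOX2 and 23.1 to 23.7 FPKM in controls, and the ratio is at least 10.8 in MEOX2 samples and at most 2.89 in NC samples.

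Of the 6 genes, 3 were higher in every MEOX2 sample than in any NC sample (SMOC2, SPOCK1, SPOCK2), 1 was lower (SMOC1) and 2 overlapped (SPARC, SPARCL1). Among the 5 in the fit, 3 did not overlap, beside 18.9% of all 13121 genes tested, 9.60% under MEOX2 higher and 9.33% under MEOX2 lower. Since the members were chosen by this contrast, nothing is read from that count. The median difference of all genes tested was -0.00273 in log2(FPKM + 1), and 5% to 95% of them lay between -0.36 and 0.36.

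**Figure D3:**
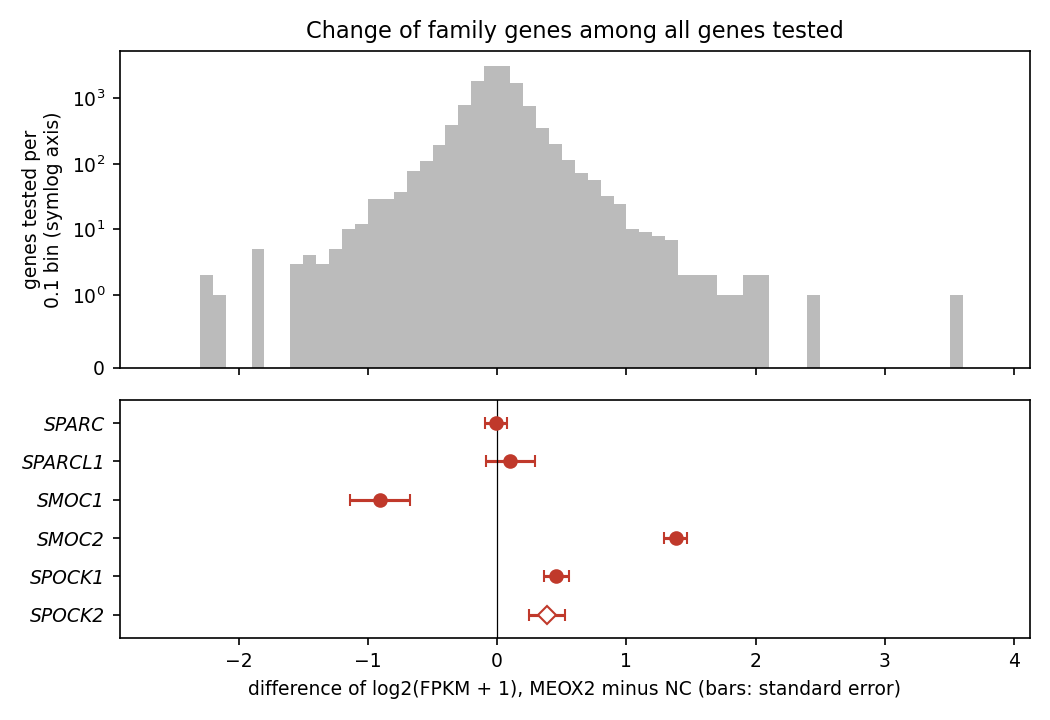
Top, number of tested genes in each 0.1-wide bin of the difference in log2(FPKM + 1), MEOX2 minus NC, on a symmetric log axis; bottom, the same difference for the 6 family genes with standard errors as bars, SPOCK2 as an open diamond because it was under the filter. SMOC2 (1.38) and SMOC1 (-0.90) lie in opposite tails, and SPARC (-0.00876) lies at the centre.

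Neighbouring genes on the chromosome were looked at for each member, a choice made after the values were seen. DACT2, a Dishevelled-binding protein and the nearest protein-coding row before SMOC2 at 132.7 kb, was at 1.46 ± 0.106 FPKM under MEOX2 and 0.584 ± 0.149 FPKM in controls, with limma adjusted p = 0.097. The nearest protein-coding row after SMOC2, at 348.2 kb (ENSOARG00000005037, chromosome 8, 89747351 to 89768504, minus strand), has no symbol in the table and is annotated there with a thrombospondin C-terminal domain. This row rose from 43.0 ± 3.06 to 100.7 ± 10.2 FPKM (SD, n = 3 each), by 1.21 (SE 0.10) in log2(FPKM + 1) with limma adjusted p = 4.34e-04. ATOX1 after SPARC, NUDT9 before SPARCL1, and CHST3 and ASCC1 on either side of SPOCK2 were tested and not called (limma adjusted p of 0.257, 0.652, 0.993 and 0.917). The rows flanking SMOC1 and SPOCK1 were all under 1 FPKM. SPARC and SPOCK1 lie on the same chromosome but are not neighbours.

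Genes with the pattern most like each member were ranked by Pearson correlation of log2(FPKM + 1) over the 6 samples, which share their library depth and group structure with the member. For SMOC2 the nearest of 10348 named genes were TAP1 (r = 0.9991), a peptide transporter of antigen presentation, PSMB8 (0.9981), an immunoproteasome subunit, and CNGA3 (0.9971), which encodes an ion channel opened by cyclic nucleotides. Their differences in log2(FPKM + 1) were 0.90, 0.86 and 2.02. For SPOCK1 they included GARS (0.9943) and VAT1 (0.9920), and for SMOC1 they were RCSD1 (0.9952), TNNI2 (0.9931) and CLTA (0.9910). SPARC ran closest to BICD2 (0.9939), NYNRIN (0.9921) and GRINA (0.9811), and SPARCL1 to ZNF672 (0.9907), SERINC3 (0.9810) and IFT46 (0.9803), patterns that hold mostly spread within the groups.

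The genes around the family were taken from 9 lists of proteins that share a domain with it, bind it, cut it or are held back by it. Of 172 genes, 154 were in the table and 126 were tested, and 7 rose and 5 fell at a limma adjusted p under 0.05, or 9.52%. Over all genes tested 2.67% were called, 1.51% higher and 1.16% lower. The lists were chosen with earlier results of these data known, so nothing is read from the difference between these shares. The median difference of these 126 genes was -0.00723 in log2(FPKM + 1). The count of 12 fell to 7 without NC sample 2 and was 8 to 14 without each other library.

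Among other secreted proteins with follistatin-like or Kazal modules, 1 of 7 tested rose and none fell, with a median difference of 0.29. HTRA1, a secreted serine protease, rose from 612.3 ± 22.4 to 904.7 ± 12.0 FPKM (SD, n = 3 each; 0.56, limma adjusted p = 0.00461). FSTL1, the follistatin-like protein nearest to SPARC in domain make-up, was at 877.8 ± 32.6 under MEOX2 and 719.8 ± 26.9 FPKM in controls and was not called (limma adjusted p = 0.081). IGFBP7 and HTRA3 were higher in every MEOX2 sample but also not called (0.0555 and 0.092).

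None of 15 genes of the collagens that SPARC binds and of their assembly was called by limma or limma voom, with 2 at an unadjusted p under 0.05 and a median difference of -0.0155. COL1A1 and COL1A2, the chains of collagen I, were at 10590 ± 758.7 and 7562 ± 463.3 FPKM under MEOX2 and at 9410 ± 767.3 and 6505 ± 261.0 FPKM in controls (SD, n = 3 each). COL4A1 and COL4A2 of basement membranes were at 364.4 and 140.5 FPKM under MEOX2 and 426.6 and 163.6 FPKM in controls.

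Of 14 tested genes for other matricellular proteins, 5 rose and none fell, and the median difference was 0.18. CTGF, induced by TGF-beta, went from 140.2 to 260.1 FPKM (0.89), THBS1, a thrombospondin that activates latent TGF-beta, from 188.4 to 292.1 FPKM (0.63), and TGFBI, an integrin-binding matrix protein, from 820.4 to 1222 FPKM (0.57). Their limma adjusted p values were 4.34e-04, 0.00245 and 0.00697, and each also passed when any 1 library was dropped. NOV, a relative of CTGF, rose from 7.005 to 13.2 FPKM (0.82), and FBLN5, an elastic fibre protein, from 44.3 to 70.8 FPKM (0.66); dropping MEOX2 sample 1 or 2 or NC sample 2 ended the call of NOV, and dropping MEOX2 sample 1 or 3 or NC sample 1 or 2 that of FBLN5, with limma adjusted p as high as 0.0647 and 0.11. Differences were above 0 for 9 of the 14 genes. POSTN and CYR61 were lower in every MEOX2 sample but not called (limma adjusted p of 0.0747 and 0.158). They were at 29.75 and 158.3 FPKM under MEOX2 and at 41.54 and 206.8 FPKM in controls. FBLN5, POSTN and CYR61 were named after their values were seen. THBS2, SPP1 and TNXB were not matched to a row by symbol or synonym and are outside these counts. The unnamed row after SMOC2 with a thrombospondin C-terminal domain was not assigned to a gene and is not counted here either.

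The list of BMP signalling genes gave 2 falls and no rise among 17 tested genes, with a median difference of -0.08. It mixes ligands, receptors, targets and antagonists, so the count gives no direction of signalling. ID1, a direct BMP target, fell from 117.6 ± 15.6 to 56.9 ± 6.30 FPKM, and CHRDL1, a secreted BMP antagonist, from 10.1 ± 0.916 to 4.72 ± 0.595 FPKM (SD, n = 3 each), by 1.03 and 0.95 in log2(FPKM + 1) with limma adjusted p of 0.00371 and 0.00539. Both passed with any library left out. SMAD6, an inhibitory SMAD, was at 7.88 FPKM under MEOX2 and 10.4 FPKM in controls, and BMP4 at 2.91 and 1.60 FPKM, neither called (0.106 and 0.0902). ID3, of the same list, was at 18.3 FPKM under MEOX2 and 23.3 FPKM in controls. Its groups overlapped and it was not called (limma adjusted p = 0.412). ID2 was at 0 in every library. BMP activity itself was not tested.

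Proteases and their inhibitors gave 1 fall among 15 tested genes and a median of -0.10. ADAMTS5, an aggrecan-cleaving protease, fell from 5.72 ± 0.118 to 2.71 ± 0.0363 FPKM (SD, n = 3 each; -0.86, limma adjusted p = 0.00533). MMP2, the most abundant of the list and an enzyme that the SPOCK proteins are known to influence, was at 3800 ± 169.5 FPKM under MEOX2 and 3944 ± 135.0 FPKM in controls. CTSK and TIMP2 were not called (0.184 and 0.344).

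Receptors and integrin-linked genes, 12 tested, held no call by limma, with a median of 0.11; 4 had an unadjusted p under 0.05, and limma voom called 3. ITGB1, the main integrin beta chain, was at 422.8 ± 13.4 and 424.1 ± 30.2 FPKM, and VLDLR, a lipoprotein receptor, was at 21.5 ± 2.56 FPKM under MEOX2 and 15.3 ± 1.24 FPKM in controls (limma adjusted p = 0.0696). Growth factors and receptors, 19 tested, held none by limma either, with a median of -0.03; 4 had an unadjusted p under 0.05, and limma voom called 1. VEGFA, which SPARC binds, was at 141.8 ± 19.1 and 180.0 ± 11.8 FPKM, and PDGFRA was at 173.6 ± 4.65 and 150.4 ± 15.4 FPKM under MEOX2 and in controls (SD, n = 3 each).

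Glycosaminoglycan chains of the kind carried by SPOCK proteins are built by the enzymes of the next list, in which 1 of 17 tested genes rose and 1 fell (median -0.00586). XYLT1, which starts the chains, rose from 6.97 ± 0.961 to 12.6 ± 1.41 FPKM, and SULF1, which trims sulfate from heparan sulfate, fell from 50.9 ± 1.54 to 35.3 ± 3.47 FPKM (SD, n = 3 each; limma adjusted p of 0.0143 and 0.019). Dropping MEOX2 sample 1 or 3 or NC sample 1 or 2 ended the call of XYLT1, and MEOX2 sample 1 or 2 or NC sample 1 or 2 that of SULF1 (limma adjusted p as high as 0.0659 and 0.0859). Among 10 proteoglycans of cell surface and matrix (median 0.16), BGN fell from 709.7 to 525.0 FPKM, a call that ended without MEOX2 sample 2 or 3 or NC sample 1 or 2 (limma adjusted p as high as 0.0776), and SDC2 and DCN were not called.

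**Figure D4:**
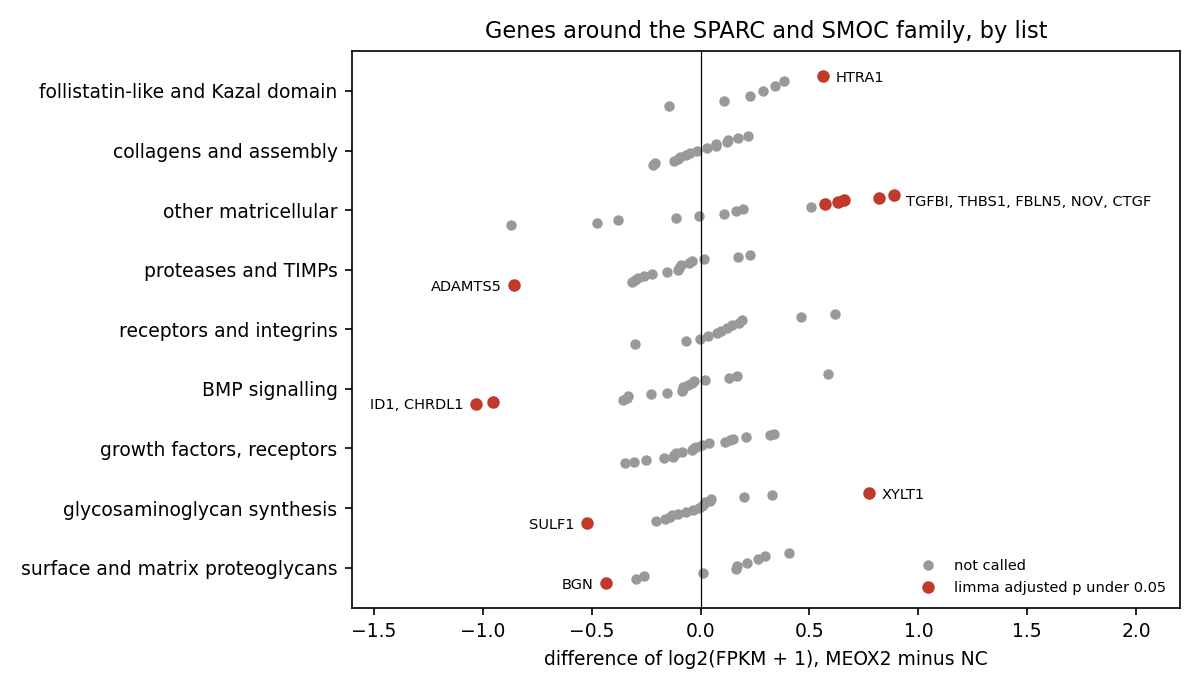
Difference in log2(FPKM + 1), MEOX2 minus NC, of each tested gene in the 9 lists, 1 point per gene, with genes at a limma adjusted p under 0.05 in red and named from left to right. Called genes include 5 matricellular genes on the higher side and ID1, CHRDL1 and ADAMTS5 on the lower side.

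Markers of other cell types were summed in each library, and their part in the family's differences was not tested. Mature adipocyte markers other than RBP4, the most abundant, summed to 165.9 to 186.1 FPKM under MEOX2 and 341.7 to 407.2 FPKM in controls, and 5 of 11 tested fell. FABP4 was the largest part of that sum, at 79.6 FPKM under MEOX2 and 235.3 FPKM in controls. LPL was level, at 39.7 and 39.5 FPKM (limma adjusted p = 0.993). Pericyte and smooth muscle markers summed to 750.7 to 795.3 and 654.4 to 661.3 FPKM, mostly TAGLN, or without TAGLN to 245.3 to 289.2 and 239.9 to 247.8 FPKM, and 2 of 10 tested rose and none fell. RGS5, a defining pericyte marker, had 4, 0 and 1 reads in MEOX2 samples 1 to 3 and 0 in each NC sample. The 2 that rose were CSPG4, a pericyte marker, from 14.5 to 20.7 FPKM, and CNN1, from 48.4 to 71.0 FPKM (limma adjusted p of 0.0321 and 0.0127). The pericyte markers KCNJ8 and MCAM, not called, were at 1.24 and 3.32 FPKM under MEOX2 and 1.85 and 3.76 FPKM in controls, lower in every MEOX2 sample. PDGFRB, also not called, was at 134.8 and 136.3 FPKM. The 14 preadipocyte and stromal markers in the table summed to 10810 to 12250 and 9795 to 10090 FPKM, mostly VIM, and 1 of 12 tested rose. Without VIM, which was not called, they summed to 2770 to 2989 and 2745 to 2876 FPKM, ranges that overlap. Endothelial markers summed to 2.50 to 4.12 and 2.32 to 3.68 FPKM, and EMCN and ROBO4 were at 0. Of 14 leukocyte markers CD14 averaged 111.1 FPKM, the others summed to at most 15.9 FPKM, and MS4A1 and CD2 were at 0. Mesothelial and epithelial markers summed to at most 3.27 FPKM, with EPCAM at 0, and skeletal muscle markers to at most 0.891 FPKM, with 5 of 10 at 0.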

How the data were processed

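Gene values of 6 sheep libraries came from 1 table of FPKM values made by the authors. Per the submitters' processing notes, the tools were DESeq2 1.20.0, featureCounts 1.5.0-p3, HISAT2 2.0.5, CASAVA 1.8 and fastp, with no roles or settings stated. No strand setting was stated, so overlapping or antisense genes cannot be told apart. Multiplied by gene length, 100% of nonzero values fell within 0.001 read of a whole number of equal steps in each library, which gave the reads per gene.

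For 13121 genes averaging 1 FPKM or more, log2(FPKM + 1) was fitted with limma 3.58.1 (R 4.3.3, intensity trend, no covariates), with Benjamini-Hochberg adjustment over all of them and a threshold of 0.05. The fit was also run on simulated reads, with the same extra spread set for every gene. That run does not speak to the real spread between samples. Python 3.11.15, numpy 2.4.6, pandas 2.3.3, scipy 1.17.1 and matplotlib 3.10.9 were used otherwise. Of 262 list symbols, 234 matched by symbol, 2 through RefSeq synonyms (ARS-UI_Ramb_v3.0) and 26 not at all.

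The members and lists were chosen with earlier results of these data known. Named were MEOX2, all members, and the 3 genes closest in pattern to each member. In each related list the most abundant gene and up to 4 with the smallest p were named. FBLN5, POSTN, CYR61, ID2, ID3, marker genes other than the most abundant, and chromosome neighbours were named after their values were seen. One gene under this rule is not reported here. Equal replicate numbers did not mark paired samples in the labels. Also tried were a replicate block, limma voom on the recovered reads, leaving out each library, and changed pseudocounts, filters, scalings and variance models.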

Additional observations from a re-analysis of the deposited data

How the results depend on the processing

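The family's differences kept their direction in each alternative run, except those of SPARC and SPARCL1, whose groups overlap and whose small differences took either sign without single libraries (-0.064 to 0.054 and -0.058 to 0.205). For SMOC2 the difference was 1.52 with a pseudocount of 0.1 FPKM, 1.46 with 0.5 FPKM and 1.53 by limma voom, and 1.34 to 1.41 without single libraries. For SMOC1 it was -1.39 with a pseudocount of 0.1 FPKM and -1.44 by limma voom, and -1.12 to -0.72 without single libraries. SPOCK1 stayed between 0.38 and 0.53. SPOCK2 had a value only without the filter, so no alternative was run for it.

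The 350 calls over all genes became 194 without a filter, 574 by limma voom and 117 to 276 without single libraries. The 12 calls of the related lists became 25 by limma voom, and 7 to 14 without single libraries. NOV, XYLT1 and FBLN5 lost their calls without a filter (limma adjusted p of 0.0672, 0.0534 and 0.0855), and FBLN5 also without the trend (0.0573). By limma voom FSTL1, IGFBP7, HTRA3, VLDLR, BMP4 and VEGFA passed too, with adjusted p from 0.00339 to 0.0363. With the replicate block 242 genes were called, and all 12 related genes kept their call; same-numbered samples had correlations of -0.0747, 0.0204 and -0.0042 in their deviations from the group means, so the numbers did not pair them. SMOC1, SPOCK2 and SPARCL1 are limited by depth, with 8 to 68 reads per library.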
